A study of Mus musculus with 2 samples.

Results

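The synaptic vesicle release machinery was examined as a set of 54 named mouse genes, out of 47643 genes counted, whose proteins fill, dock, prime, fuse and retrieve transmitter vesicles. The members were taken by gene symbol from a list set by function, with no threshold on their values, and all 54 were matched to a counted gene. RNA came from cortical progenitors of wild-type male mice, isolated from cortex at E14, electroporated with siRNA and kept in culture for 5 days. The siPhf6 group received siRNAs against Phf6, the gene for a PHD finger protein of the nucleus, and the siCtl group received control siRNA. The data analysed here hold 1 library of gene counts for each group, so no difference below has a replicate check. The study describes replicate samples for its RNA-seq, and whether each table pools several cultures is not stated in the sources used here. A ratio sets 1 library against the other and cannot tell the effect of the siRNA from the spread between samples. The knockdown is transient and acts in a mixed culture, in which fewer cells of a type and less RNA per cell cannot be told apart.

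A vesicle is filled by a transporter, tethered at the active zone of the presynaptic membrane by large scaffold proteins, and primed by Munc13 and CAPS proteins so that its SNARE protein, a VAMP, can zip up with syntaxin and SNAP25 in the target membrane. Complexins hold and assist the partly zipped complex, and synaptotagmins such as Syt1 bind calcium and trigger fusion. Afterwards NSF and its attachment proteins pull the SNAREs apart, and dynamin, amphiphysin and synaptojanin take the membrane back. Developing neurons make many of these proteins before they form synapses, whereas dividing progenitors make little of them.

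The libraries held 10561757 reads in genes for siPhf6 and 12155311 for siCtl, with reads in 24610 genes in siPhf6 and 24785 in siCtl. Phf6 had 310 reads in the siPhf6 library and 1420 in the siCtl library, 25.1% of the siCtl level after scaling to gene reads (log2 ratio -1.99, 95% counting interval -2.17 to -1.81). Although the labels name progenitors, 15 markers of postmitotic neurons summed to 4705 RPM (reads-per-million of gene reads) in siPhf6 and 4567 RPM in siCtl, and 9 radial glia markers to 534 RPM in siPhf6 and 387 RPM in siCtl. Markers of dividing cells summed to 63.2 RPM in siPhf6 and 29.9 RPM in siCtl, and their 2 members with enough reads, Mki67 and Top2a, were both higher in siPhf6, with log2 ratios of 1.26 and 1.21. The radial glia genes Nes (log2 ratio 0.77) and Slc1a3 (0.71) were also past 1.5-fold, as were Aqp4 (0.80) and Slc1a2 (0.59) among astrocyte markers, Olig1 (0.80) and Olig2 (1.15) of the oligodendrocyte lineage, and Col1a1 (1.75) of fibroblasts. Other markers of these lists had ratios below 0. They included Sox2 of radial glia (-0.22), Gfap of astrocytes (-0.14) and Mbp of the oligodendrocyte lineage (-0.31). Summed astrocyte markers were at 530 RPM in siPhf6 and 384 RPM in siCtl, and those of the oligodendrocyte lineage at 96.3 RPM in siPhf6 and 75.4 RPM in siCtl. Glutamatergic markers summed to 941 RPM in siPhf6 and 1067 RPM in siCtl and GABAergic markers to 277 RPM in siPhf6 and 281 RPM in siCtl, with Lhx6 the only neuronal marker past 1.5-fold (log2 ratio -0.80). No microglial marker had enough reads, with Aif1 at 38 reads in siPhf6 and 44 in siCtl and C1qa at 0 in both libraries. Endothelial and mural markers summed to 53.4 RPM in siPhf6 and 58.2 RPM in siCtl. Among them Pdgfrb (log2 ratio 0.04) and Rgs5 (-0.33) had enough reads, while Cldn5 was at 0 in both libraries. The part of these differences in cell make-up in the results below was not tested.

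Members were compared where at least 150 reads were counted in at least 1 library, which held for 50 of the 54 and for 10130 genes in all. The remaining 4 fell below that minimum in both libraries. Cplx3, a complexin of retina and some cortical cells, had 0 reads in siPhf6, which allows up to 0.284 RPM (3 reads), and 6 in siCtl. Syt2, the fast calcium sensor of hindbrain synapses, had 32 reads in siPhf6 and 23 in siCtl. Doc2a, a calcium-binding protein of the vesicle, had 66 reads in siPhf6 and 61 in siCtl, and Unc13c, the cerebellar Munc13, had 34 in siPhf6 and 20 in siCtl.

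The release machinery was abundant in both libraries. Per kilobase of exon, on the mean of both libraries, the members lay at a median percentile of 82.4 among kept genes, with 37 of the 50 above the median kept gene and 19 in the top 10%. Together the 54 members took 10338 RPM in siPhf6 and 10250 RPM in siCtl, a log2 ratio of 0.01 (95% counting interval 0.00 to 0.02). In RPM per kilobase of exon (RPKM), the highest levels belonged to Syt4, a synaptotagmin of secretory granules, with 99.5 in siPhf6 and 93.0 in siCtl. Next in siCtl came Syn1, the vesicle phosphoprotein synapsin, with 88.8 RPKM in siPhf6 and 85.9 RPKM in siCtl, and Cplx1, the main complexin of fast synapses, with 89.9 RPKM in siPhf6 and 80.5 RPKM in siCtl. In siPhf6 Cplx1 stood above Syn1, by a small margin. The lowest kept members in siCtl were Vamp1, with 2.55 RPKM in siPhf6 and 2.30 RPKM in siCtl, and Doc2b, with 4.02 RPKM in siPhf6 and 2.79 RPKM in siCtl. The same 3 genes thus stood highest and Vamp1 lowest in both libraries, and the plot of levels by gene gives all 50 in RPM.

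**Figure D1:**
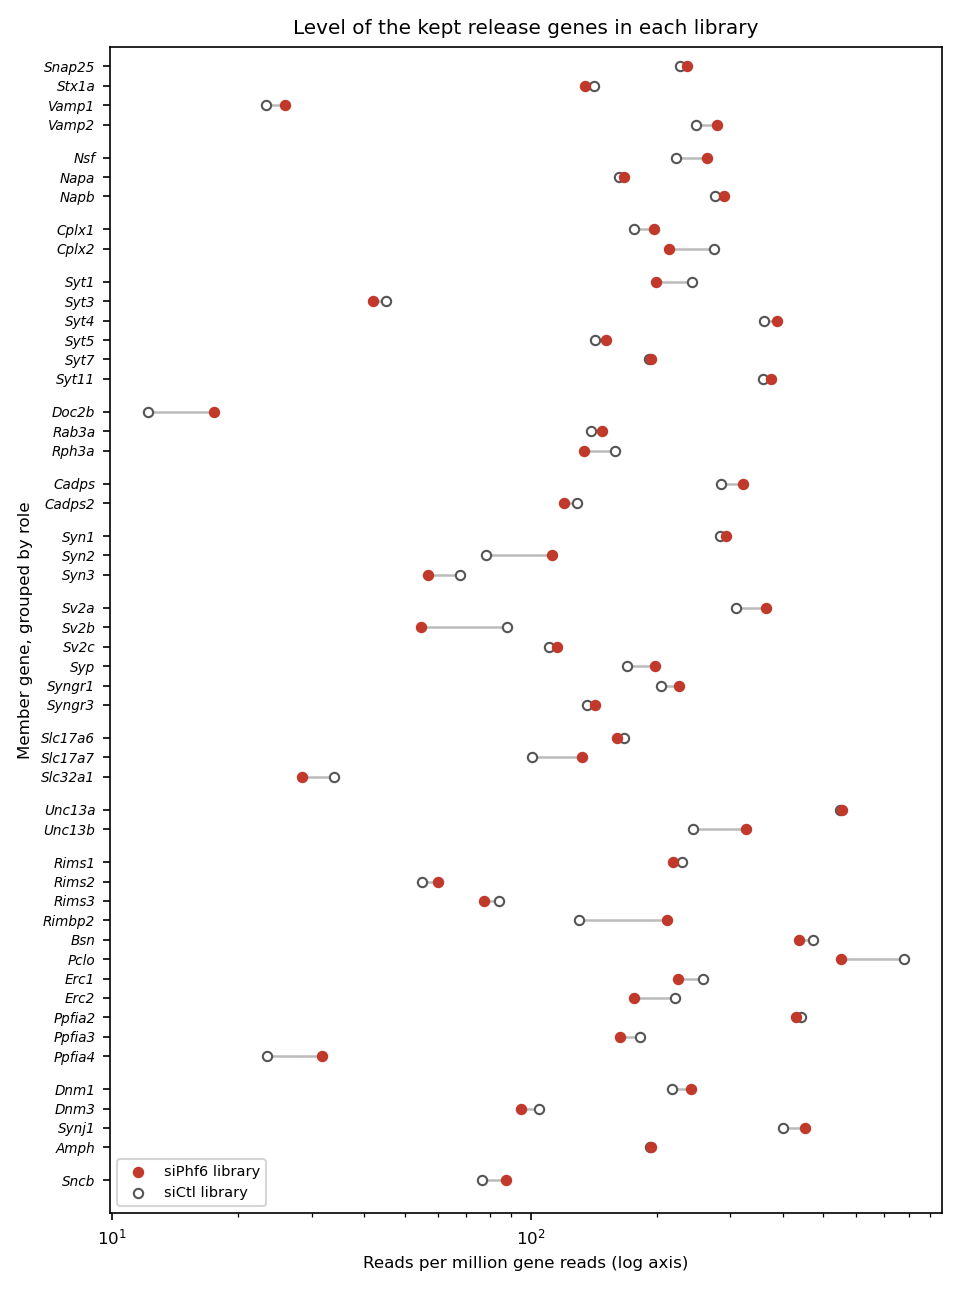
Level of the 50 kept release genes in the siPhf6 library (filled red points) and the siCtl library (open points), in RPM on a log axis, with genes grouped by role. Most pairs of points nearly touch, and the widest gaps belong to Rimbp2 (212 RPM in siPhf6 and 130 RPM in siCtl) and Sv2b (54.8 RPM in siPhf6 and 87.8 RPM in siCtl).

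Of the 50 kept members, 1 was higher in siPhf6 past 1.5-fold (Rimbp2), 1 was lower (Sv2b) and 48 lay within. That is 4% of the members, against 7.4% of all 10130 kept genes past 1.5-fold in either direction (4.18% higher and 3.23% lower). At a narrower limit of 0.32 on the log2 scale the counts were 6 higher and 4 lower, or 20% of members against 21.9% of kept genes (11.2% higher and 10.7% lower). The shares past either limit were thus near or under those of all kept genes. An exact binomial test of the reads, which asks only whether the 2 libraries differ beyond counting error (FDR under 0.01 and a log2 ratio over 0.25 either way), gave 6 members higher and 6 lower, 24% against 25.9% of kept genes. The members higher by both rules were Rimbp2, Syn2, Doc2b, Ppfia4, Unc13b and Slc17a7, and those lower were Sv2b, Pclo, Cplx2 and Erc2, to which the binomial rule added Syt1 and Syn3. The whole counting interval lay past 1.5-fold for Rimbp2 alone, against 3.28% of kept genes. With a minimum of 10 reads 3 members were higher and 1 lower past 1.5-fold (17.5% of such genes lay past it), and with a minimum of 500 reads 1 and 1 (5.02%). No member was past 2-fold, against 1.53% of kept genes. By each of these rules, taken in either direction, the share of members was under that of kept genes, which were not matched to them for depth.

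The median log2 ratio of the members was 0.06, beside 0.01 over all kept genes, and their interquartile range was 0.27, beside 0.32. A ratio above 0 was found for 62% of members and 51.8% of kept genes, and 74% of members lay within 0.25 of 0 on the log2 scale, beside 68.8% of kept genes. Release genes were read more deeply than most, since 39 of the 50 had over 1000 reads in both libraries, against 34.5% of kept genes, and they were also set beside genes of like depth. Among the 3494 kept genes with over 1000 reads in both libraries the robust SD of the log2 ratio was 0.18, and it was 0.18 for the 39 members among them. Past 1.5-fold lay 1 of these 39 members and 70 of the 3494 genes.

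**Figure D2:**
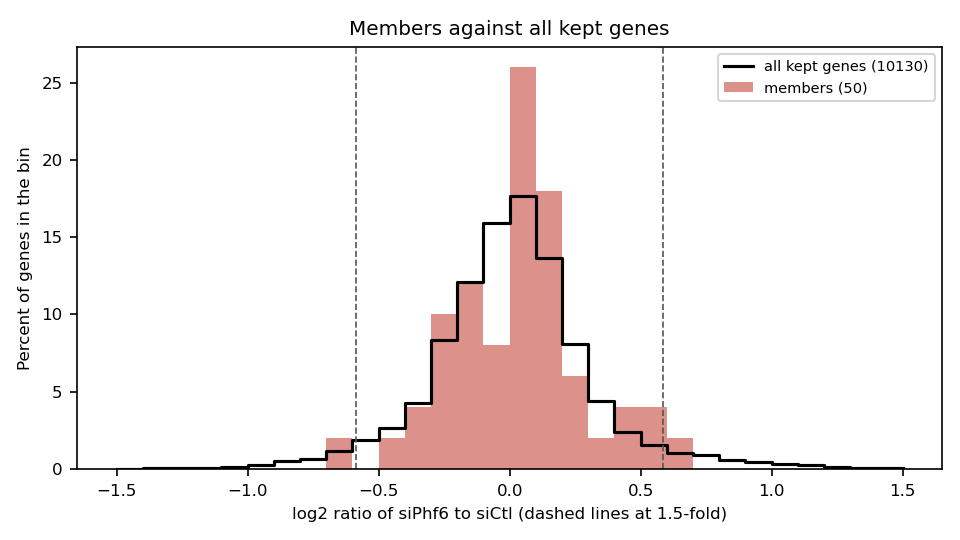
Distribution of the log2 ratio of siPhf6 to siCtl in bins of 0.1, as percent of the 50 kept members (red bars) and of all 10130 kept genes (black outline, which leaves out 32 genes beyond the axis), with dashed lines at 1.5-fold. The members sit within the spread of all genes, with 1 member beyond each dashed line.

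The SNARE proteins that carry out fusion differed little. Snap25, the target-membrane SNARE with both helices in 1 chain, had 2494 reads in siPhf6 and 2765 in siCtl (log2 ratio 0.05, interval -0.02 to 0.13). Stx1a, the syntaxin of the plasma membrane, had 1422 reads in siPhf6 and 1724 in siCtl (-0.07, -0.18 to 0.03). Vamp2, the vesicle SNARE of forebrain synapses, had 2942 reads in siPhf6 and 3027 in siCtl (0.16, 0.09 to 0.24). Vamp2 made up 96.6% of the summed level per length of Vamp1 and Vamp2 in each library. Of the genes that take the SNARE complex apart, Nsf, the ATPase, had 2781 reads in siPhf6 and 2703 in siCtl (0.24, 0.17 to 0.32), while its attachment proteins Napa (0.04) and Napb (0.07) had intervals that took in 0.

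Among regulators of fusion, the complexins lay apart. Cplx1 had 2079 reads in siPhf6 and 2142 in siCtl (0.16, 0.07 to 0.25), whereas Cplx2, the other forebrain complexin, had 2262 reads in siPhf6 and 3330 in siCtl (-0.35, -0.43 to -0.28). Cplx1 made up 67.4% of complexin level per length in siPhf6 and 59.1% in siCtl. The reads of Cplx1 over those of Cplx2, a ratio that does not depend on how the libraries are scaled, were 0.92 in siPhf6 and 0.64 in siCtl. Neither gene was past 1.5-fold.

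The synaptotagmins among the members held nearly the same level as a group, at 1353 RPM in siPhf6 and 1344 RPM in siCtl. Syt1, the trigger of fast synchronous release, was the kept member synaptotagmin farthest from 0, with 2105 reads in siPhf6 and 2947 in siCtl (-0.28, -0.36 to -0.20). Syt4 had 4089 reads in siPhf6 and 4399 in siCtl (0.10, 0.04 to 0.16), and Syt7, the slow high-affinity sensor, had 2044 in siPhf6 and 2333 in siCtl (0.01, -0.07 to 0.10). Syt3, Syt5 and Syt11 had log2 ratios of -0.11, 0.09 and 0.07. Syt1 was thus lower in siPhf6 beside member relatives nearer 0, with a read ratio of Syt1 to Syt4 of 0.51 in siPhf6 and 0.67 in siCtl. Set against Syt3, the log2 difference was smaller and its interval took in 0 (-0.18, -0.38 to 0.03). Of the kept synaptotagmins outside the 54, Syt16 (-0.54), Syt14 (-0.50) and Syt9 (0.40) lay farther from 0 than Syt1, and Syt13 (0.05) nearer. The Syt4 counts are less certain than the rest, since 14.5% of its exon bases are shared with Gm26658 and the library kit did not mark strand. The same limit touches Doc2a, Slc32a1, Ppfia2, Syp, Syn3 and Erc1, the other members with over 10% of exon bases in another gene, while 34 members shared none.

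Proteins that link calcium, Rab3 and the vesicle were mixed. Doc2b, a calcium sensor for spontaneous release, had 185 reads in siPhf6 and 148 in siCtl (0.52, 0.20 to 0.85), the widest interval among the members near the 1.5-fold limit. Rab3a, the vesicle GTPase, had 1562 reads in siPhf6 and 1698 in siCtl (0.08, -0.02 to 0.18). Its effector rabphilin, Rph3a, had 1419 reads in siPhf6 and 1938 in siCtl (-0.25, -0.35 to -0.15). Rph3a thus lay below 0 while the interval of Rab3a took in 0, both within 1.5-fold. This contrast covers Rab3a alone. Of the Rab3 genes outside the 54, Rab3c had 5873 reads in siPhf6 and 7978 in siCtl (-0.24, -0.29 to -0.19). Rab3b and Rab3d lay at 0.39 and 0.54.

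The priming factors were led by Unc13a, the Munc13 of most forebrain synapses, with 5849 reads in siPhf6 and 6660 in siCtl (0.02, -0.04 to 0.07). Unc13b had 3457 reads in siPhf6 and 2967 in siCtl (0.42, 0.35 to 0.49) and was within 1.5-fold. Per kilobase, Unc13b made up 24.5% of the Munc13 level in siPhf6 and 19.8% in siCtl, over all annotated exons of each gene. The CAPS proteins, which prime dense-core vesicles, had log2 ratios of 0.17 for Cadps and -0.10 for Cadps2.

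The scaffold of the active zone held both the member most in excess in siPhf6 and several that were lower. Rimbp2 encodes RIM-binding protein 2, which ties RIM proteins to presynaptic calcium channels. It had 2235 reads in siPhf6 and 1586 in siCtl, or 212 RPM in siPhf6 and 130 RPM in siCtl, a 1.62-fold higher level in siPhf6 (log2 ratio 0.70, 0.60 to 0.79). Its whole counting interval lay past 1.5-fold (0.58 on the log2 scale), and 4.85% of kept genes lay as far from 0 in either direction. The gene (ENSMUSG00000029420.12) lies on the minus strand of chromosome 5, from 128757791 to 128953486 on GRCm38, the assembly also called mm10, and under 1% of its exon bases are shared with another gene. The 250 bases before its RefSeq start site are printed because Rimbp2 was the only kept member higher past 1.5-fold. They hold 63.6% G and C and none of the 5 motifs searched, so no letters are in capitals (chr5:128953487-128953736, minus strand, GRCm38.p6).
Rimbp2 upstream: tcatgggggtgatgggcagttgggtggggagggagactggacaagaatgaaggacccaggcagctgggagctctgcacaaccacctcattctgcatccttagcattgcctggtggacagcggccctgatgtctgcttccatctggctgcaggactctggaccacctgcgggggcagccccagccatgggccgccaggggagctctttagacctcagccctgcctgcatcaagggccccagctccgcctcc

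Most other scaffold genes were at or under the siCtl level. Pclo, for the giant scaffold protein piccolo, had 5836 reads in siPhf6 and 9494 in siCtl, or 553 RPM in siPhf6 and 781 RPM in siCtl (-0.50, -0.55 to -0.45), just inside the 1.5-fold limit. Its relative Bsn, for bassoon, had 4624 reads in siPhf6 and 5763 in siCtl (-0.11, -0.17 to -0.06), and the ratio of Bsn to Pclo reads was 0.79 in siPhf6 and 0.61 in siCtl. Erc2, an ELKS protein that binds RIM, had 1865 reads in siPhf6 and 2690 in siCtl (-0.33, -0.41 to -0.24), and Erc1 had 2373 in siPhf6 and 3143 in siCtl (-0.20, -0.28 to -0.13). Piccolo and the ELKS genes were thus all lower, none past 1.5-fold. The RIM genes among the members lay near 0, with log2 ratios of -0.07 for Rims1, 0.12 for Rims2 and -0.12 for Rims3. Rims4, outside the 54, lay at 0.55. Of the liprin-alpha genes, which help to build the active zone, Ppfia2 (-0.04) and Ppfia3 (-0.16) were close to the siCtl level. Ppfia4, the lowest of these per length, had 336 reads in siPhf6 and 286 in siCtl (0.43, 0.20 to 0.67).

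Of the 11 active zone scaffold genes 8 were below 0, where 51.8% of all kept genes were above 0. Among these 8, the intervals of Rims1, Rims3 and Ppfia2 took in 0. Summed over its 11 genes, the scaffold was at 2586 RPM in siPhf6 and 2884 RPM in siCtl (log2 ratio -0.16, -0.18 to -0.13). It had the lowest log2 ratio of the 13 role sums, and complexins (-0.13) and the group of Doc2 proteins, Rab3a and rabphilin (-0.05) were the only others below 0. Pclo alone carried much of it. Without Pclo, left out after its value was seen, the scaffold sum had a log2 ratio of -0.05, and without Pclo and Rimbp2 of -0.12. In the other 12 roles 28 of 39 kept members were above 0, with a median log2 ratio of 0.07.

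**Figure D3:**
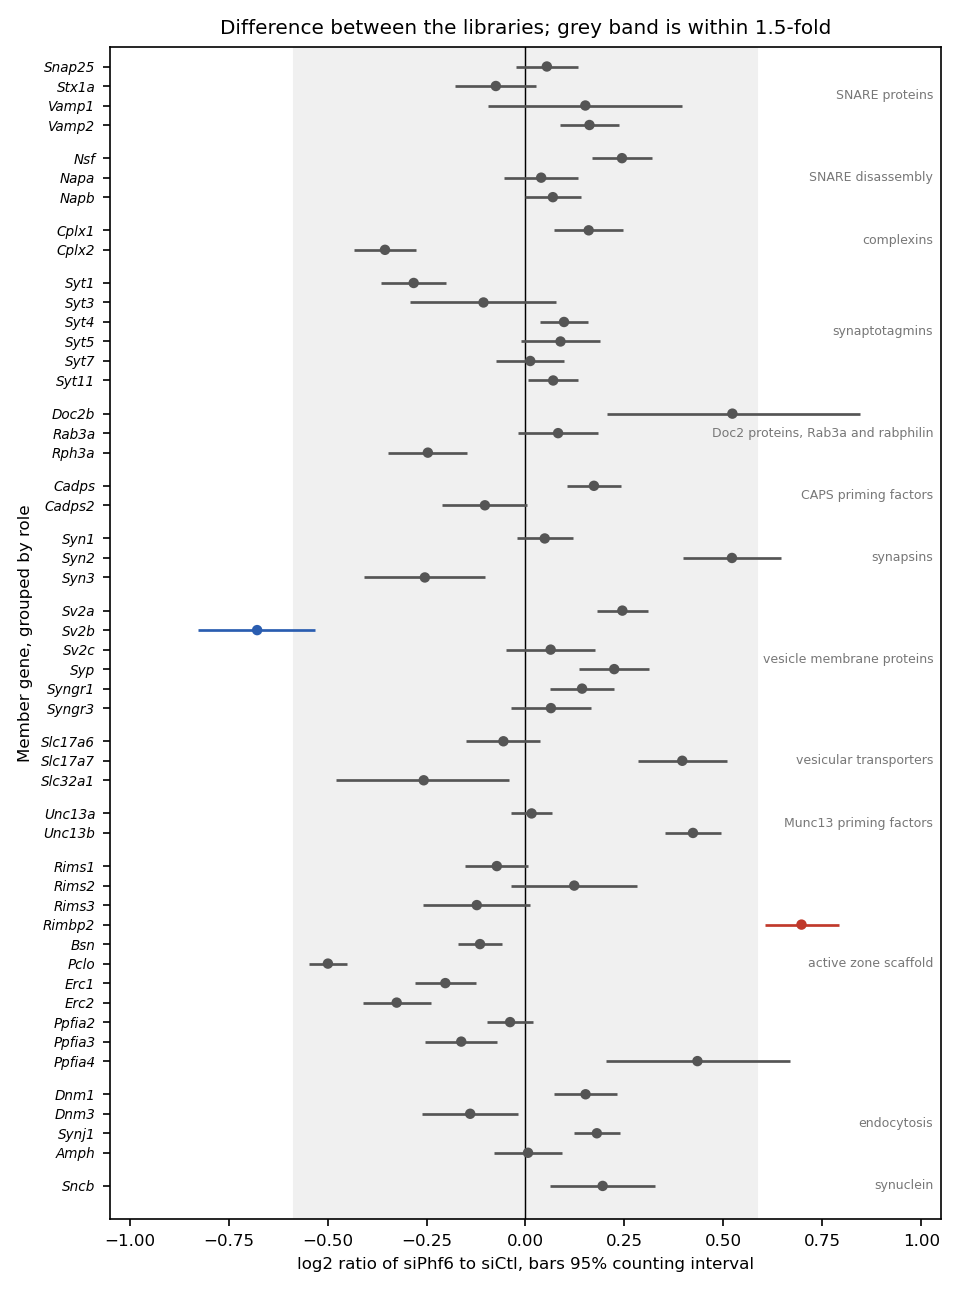
Log2 ratio of siPhf6 to siCtl for the 50 kept members by role, with 95% counting intervals as bars and a grey band that spans 1.5-fold in each direction. Rimbp2 (0.70, red) and Sv2b (-0.68, blue) are the 2 points outside the band. Left of 0 lie 8 of the 11 active zone genes, some with bars that cross 0. Of all kept genes 51.8% were above 0.

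Among the synapsins, which tether reserve vesicles to actin, the main form was near its siCtl level and the minor forms differed. Syn1 had 3095 reads in siPhf6 and 3444 in siCtl (0.05, -0.02 to 0.12). Syn2 had 1189 reads in siPhf6 and 953 in siCtl (0.52, 0.40 to 0.65), and Syn3, the synapsin of young neurons, had 600 in siPhf6 and 824 in siCtl (-0.25, -0.41 to -0.10). The read ratio of Syn2 to Syn3 was 1.98 in siPhf6 and 1.16 in siCtl, a difference of 0.78 on the log2 scale (0.58 to 0.98). Syn1 nevertheless held 81.1% of the synapsin level per length in siPhf6 and 83.7% in siCtl. Stretches upstream of Syn1 are shown because it stood next to Syt4 in level per length in siCtl and its window held 2 of the motifs searched. The first stretch holds the left part of the RE1 element bound by the neuronal gene repressor REST (TTCAGCACC, capitals, positions -232 to -224 from the start site), and the second holds the cAMP response element (TGACGTCA, capitals, -159 to -152), both on GRCm38.p6, minus strand.
Syn1, chrX:20921116-20921168: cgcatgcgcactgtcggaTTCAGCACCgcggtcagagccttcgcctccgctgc
Syn1, chrX:20921044-20921103: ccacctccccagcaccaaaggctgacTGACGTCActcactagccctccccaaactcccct

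Vesicle membrane proteins were level or slightly higher in siPhf6, with 1 exception in the SV2 family. SV2 proteins are glycoproteins of the vesicle membrane related to transporters. Sv2b had 579 reads in siPhf6 and 1067 in siCtl, or 54.8 RPM in siPhf6 and 87.8 RPM in siCtl, 62.5% of the siCtl level (log2 ratio -0.68, -0.83 to -0.53). Its counting interval reached inside the 1.5-fold limit, and 5.32% of kept genes lay as far from 0 in either direction. Sv2a, the ubiquitous form, had 3868 reads in siPhf6 and 3757 in siCtl (0.24, 0.18 to 0.31), and Sv2c had 1223 in siPhf6 and 1347 in siCtl (0.06, -0.05 to 0.18). The 3 paralogs were therefore split, and the read ratio of Sv2a to Sv2b was 6.68 in siPhf6 and 3.52 in siCtl, 1.90 times as high in siPhf6 (0.92, 0.76 to 1.09). Per length Sv2b made up 6.71% of the family in siPhf6 and 11.8% in siCtl, and Sv2a made up 81.0% in siPhf6 and 75.3% in siCtl. Among the other membrane proteins, Syp, for synaptophysin, had a log2 ratio of 0.22 and the synaptogyrins Syngr1 and Syngr3 of 0.14 and 0.06.

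Sv2b (ENSMUSG00000053025.13) lies on the minus strand of chromosome 7, from 75114894 to 75309262 on GRCm38. RefSeq gives it 4 start sites. The first of these has 48.8% G and C in the 250 bases before it. That was the lowest share, with Rph3a, among the 44 members with a RefSeq promoter. The median of these members, some of them below the read minimum, was 61.6%, beside 61.2% for kept genes. The window before the first start site is printed because Sv2b was the only kept member lower past 1.5-fold, with TATAAA on the opposite strand in capitals (chr7:75309263-75309512, minus strand). A stretch before the second start site follows, with a CA repeat in capitals, read on the opposite strand at positions -111 to -104 (chr7:75308464-75308523, minus strand).
Sv2b upstream of first start: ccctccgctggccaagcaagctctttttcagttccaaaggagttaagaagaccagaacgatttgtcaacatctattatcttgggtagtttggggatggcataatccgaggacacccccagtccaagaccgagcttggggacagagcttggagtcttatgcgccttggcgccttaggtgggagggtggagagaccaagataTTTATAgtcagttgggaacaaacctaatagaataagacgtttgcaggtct
Sv2b upstream of second start: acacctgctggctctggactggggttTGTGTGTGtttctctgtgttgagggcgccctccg

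These motifs were searched on both strands in the 250 bases before each start site of the 44 members, 56 windows in all, and of all genes in the same RefSeq table. The 8-base CA repeat CACACACA, chosen because CA microsatellites figure in the study's binding analysis, was found in Sv2b and Erc1, 4.55% of members, against 2.94% of kept genes. TATAAA was found in Sv2b alone, 2.27% of members against 7.24% of kept genes. TTCAGCACC was found in Syn1 and Ppfia3, 4.55% against 0.404%. TGACGTCA was found in Syn1 (2.27% against 3.51%), and the E-box CACGTG in 7 members (15.9% against 10.3%), among them Sv2b, Unc13b and Cplx3. The sets are unlike, since the 44 members include Cplx3, Syt2 and Unc13c, which fell below the read minimum that kept genes passed. Genes with several start sites, such as Sv2b, have more windows in which to match, and a match to letters says nothing of use in these cells.

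The vesicular transporters, which set the transmitter a vesicle carries, differed in their proportions. Slc17a6, for the glutamate transporter VGLUT2, had 1696 reads in siPhf6 and 2029 in siCtl (-0.06, -0.15 to 0.04). Slc17a7, for VGLUT1 of mature cortical neurons, had 1402 reads in siPhf6 and 1226 in siCtl (0.40, 0.28 to 0.51), and Slc32a1, for the GABA and glycine transporter VGAT, had 300 in siPhf6 and 413 in siCtl (-0.26, -0.48 to -0.04). Slc17a7 thus took a larger place in siPhf6, at 38.2% of the summed transporter level per length, against 30.3% in siCtl. The read ratio of Slc17a7 to Slc32a1 was 4.67 in siPhf6 and 2.97 in siCtl. Of the Slc32a1 exon bases 24.9% are shared with Gm14205. Kept GABAergic markers did not share a direction, with log2 ratios of 0.10 for Gad1, 0.19 for Gad2, -0.58 for Dlx1 and -0.80 for Lhx6. Dlx1 lay just inside the 1.5-fold limit. The part of these markers in the Slc32a1 value was not tested.

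Across 15 groups of related members, 39 pairs of kept genes could be compared within each library, free of scaling between them. Most are pairs of paralogs, but the vesicular transporters pair Slc17a6 and Slc17a7 with Slc32a1, which shares their role and is of another gene family. The read ratio differed between siPhf6 and siCtl past 1.5-fold in 5 pairs and past 2-fold in none. These 5 were Sv2a with Sv2b, Sv2b with Sv2c, Syn2 with Syn3, Slc17a7 with Slc32a1, and Ppfia3 with Ppfia4. As a share, 16.8% of all pairs of kept genes differed that far in that ratio, a larger share than among these 39. Those pairs were not matched for depth. Several pairs share a gene, and pairs are not independent. The make-up of some groups was nearly equal in both libraries, as with Vamp1 and Vamp2 (log2 difference -0.01), Syt4 and Syt5 (0.01) and Napa and Napb (-0.03).

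**Figure D4:**
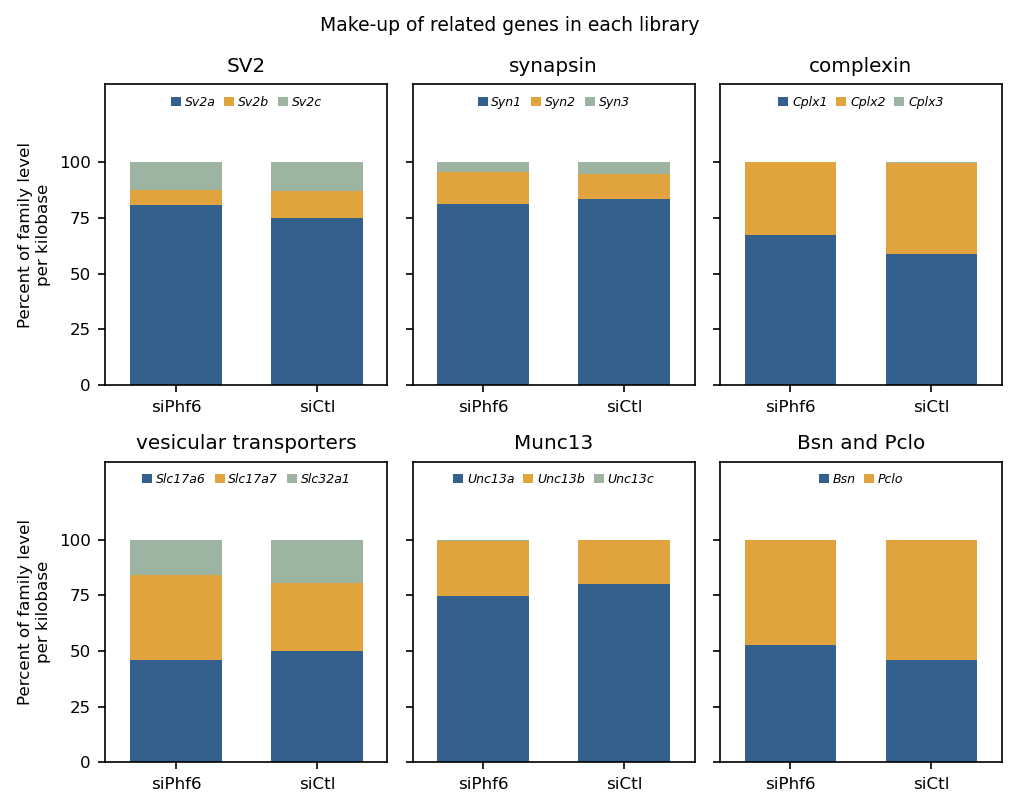
Make-up of 6 groups of related genes as percent of the group's level per kilobase of exon, in siPhf6 (left bar of each panel) and siCtl (right bar). Sv2b makes up 6.71% of the SV2 level in siPhf6 and 11.8% in siCtl, Cplx2 32.6% in siPhf6 and 40.8% in siCtl, and Slc17a7 38.2% in siPhf6 and 30.3% in siCtl.

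Genes that retrieve the vesicle membrane after fusion differed by small amounts. Synj1, the lipid phosphatase that helps to shed the clathrin coat, had 4788 reads in siPhf6 and 4863 in siCtl (0.18, 0.12 to 0.24). Dnm1, the neuronal dynamin that cuts the vesicle neck, had 2559 reads in siPhf6 and 2651 in siCtl (0.15, 0.07 to 0.23), and Dnm3 had 1003 in siPhf6 and 1272 in siCtl (-0.14, -0.26 to -0.02). Amph, for amphiphysin, had 2050 reads in siPhf6 and 2349 in siCtl (0.01, -0.08 to 0.09). Sncb, for the presynaptic protein beta-synuclein, had 924 reads in siPhf6 and 929 in siCtl (0.19, 0.06 to 0.33). All of these lay well within 1.5-fold.

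The members were set beside 3 lists of further genes of the vesicle cycle. Of 34 kept genes of release outside the 54, none was past 1.5-fold, against 7.4% of all kept genes. Past 0.32 on the log2 scale 10 were higher and 3 lower, or 38.2% of the list against 21.9% of kept genes and 20% of the members, and the median log2 ratio of the list was 0.09. The range ran from -0.58 for Stx4a, a syntaxin of general secretion (262 reads in siPhf6 and 451 in siCtl), to 0.55 for Rims4, a short RIM (1722 reads in siPhf6 and 1353 in siCtl). Of 23 kept genes of vesicle endocytosis, 1 was higher past 1.5-fold (4.18% of kept genes were) and none was lower (3.23%), with a median of 0.11. This was Synj2, the relative of Synj1 outside synapses, with 331 reads in siPhf6 and 238 in siCtl (0.68). All 15 kept genes of the proton pump that energises vesicle filling lay between -0.13 and 0.17, with a median of 0.08. The medians of these lists, like that of the members (0.06), were slightly above that of all kept genes (0.01), as was that of the 15 postmitotic neuron markers (0.06).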

How the data were processed

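RNA-seq counts of 1 siPhf6 and 1 siCtl library of cortical progenitors were used. To make the deposited counts (whole reads per gene, unfiltered), the authors used HISAT2 (mm10), samtools to remove duplicates, and HTSeq with GENCODE M9; versions are not given in the sources used here. The submitters' processing notes name deepTools 3.5.1. Duplicate removal can compress abundant genes, and multi-mapped reads are lost. Reads in no gene (24.1% siPhf6, 25.3% siCtl) and ambiguous reads (2.04% and 1.99%) were left out of totals.

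Counts were scaled to gene reads after adding 1 read. Genes reaching 150 reads in either library were kept, and a gene was called past 1.5-fold. The 95% intervals (Clopper-Pearson, exact) take in counting error alone. Without molecular barcodes, duplicate removal may keep PCR copies or drop separate molecules, so even that is a lower limit. Positions, overlaps and exon lengths came from GENCODE M21 (10114 of 10130 kept genes matched), upstream sequences from RefSeq GRCm38.p6 for 44 of 54 members. The exact binomial alternative used FDR under 0.01 and absolute log2 ratio over 0.25, and compares libraries, not conditions. Alternatives used TMM (edgeR 4.0.16), DESeq2 1.42.0 size factors in R 4.3.3, trends on length and GC content, other filters, folds and added reads. The code was tested on simulated data. The members were listed by function and not by a threshold, but they, the lists and the motifs were chosen with earlier results of these data known. By rule, Phf6, every member, and pathway or marker genes past 1.5-fold were named; other named genes were chosen after their values were seen.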

Additional observations from a re-analysis of the deposited data

How the results depend on the processing

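Counts of members past the limit followed the limit and the filter. With a minimum of 10 reads, 3 members were higher, and with no filter 3 were higher and 2 lower, because members with few reads entered (Syt2 and Unc13c higher, Cplx3 lower). At 2-fold 0 were higher and 0 lower, at a log2 limit of 0.32, 6 were higher and 4 lower, and by the binomial rule 6 were higher and 6 lower, 24% of members against 25.9% of kept genes. With the whole counting interval required past 1.5-fold, Rimbp2 was higher and 0 members were lower. Scaling by TMM or DESeq2 size factors moved the median of all genes by -0.01 and neither count. The median log2 ratio of the members, 0.06, stayed between 0.04 and 0.06 under the alternatives run. The log2 ratio of the summed level, 0.01, was 0.00 with TMM and with DESeq2 size factors; in sums chosen after seeing the data it was 0.048 without Pclo and 0.074 without the active zone scaffold. Of 300 values of single members under 6 alternatives (scaling, trends and added reads), 299 stayed within their counting interval; the other was Pclo with the length trend subtracted, at -0.45. The sign of a value turned in 4 of the 300, all of members close to 0: Amph, 0.01 in the main values, was at -0.0028 with TMM and with DESeq2 size factors, and with the GC trend subtracted Syt7 was at -0.032 and Unc13a at -0.017. Rimbp2 ranged from 0.68 to 0.73 and Sv2b from -0.69 to -0.65.

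No paired analysis was possible because each group has 1 library, so neither library was left out. At this depth the intervals of Doc2b (0.20 to 0.85) and Ppfia4 (0.20 to 0.67), with few reads, span the 1.5-fold limit. Those of Syn2 (0.40 to 0.65) and Sv2b (-0.83 to -0.53), with more reads, span it too. The side of the limit was not resolved for these members. Spread between cultures is unknown.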
